A study of Drosophila melanogaster with 4 samples.

Results

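The centromere-side end of chromosome arm 2L, together with the unplaced heterochromatic scaffold 2LHet, was examined for H3K9me3 in larvae of Drosophila melanogaster. The last 2 Mb of 2L (21011545 to 23011544, FlyBase release 5) and all 368872 bp of 2LHet were cut into 5 kb windows from their first bases, and all 474 windows were kept, 400 on 2L and 74 on 2LHet, of 27949 windows on the 13 sequences that carry clusters. The animals were wild-type Oregon-R larvae at the third instar, and no group carried a mutation or a treatment. The 4 samples were 2 libraries of chromatin immunoprecipitated (ChIP) with a new lot of an H3K9me3 antibody and 2 input libraries, from fixed and sonicated nuclei of homogenized larval tissue, so the values average over the cell types in it. The labels number the replicates without saying whether they came from separate animals or preparations, and the spread between them may be technical.

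H3K9me3 is the trimethylated form of lysine K9 on histone H3. In flies it is laid down around centromeres mainly by the methyltransferase Su(var)3-9 and by eggless, and it is bound by heterochromatin protein HP1a. The sequence there is rich in transposons and satellites, and it also holds some working genes. On 2L these include lt (light), a vacuolar sorting gene, cta (concertina), a G protein subunit that acts in gastrulation, and RpL5, a ribosomal protein gene; lt is a textbook case of a gene that needs heterochromatin around it for normal expression.

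The values are positions of clusters, the authors' name for stretches with significant enrichment, in 1 list for each ChIP library and a combined list for the replicate set. The authors' score of a cluster is on a scale that the files do not name, so scores serve here to describe, rank and filter within a list. Without read numbers the depth of a cluster is unknown, and intervals for counting error could not be given. The input libraries have no list here, and all values come from 1 group of 2 libraries, so no p-value was computed. The labelled mark is the immunoprecipitated one, and no cell type markers can be checked in cluster lists.

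The mark formed a near-continuous block over the last 845 kb of 2L and thinned out into separate islands on the arm side of it. In 4 blocks of 500 kb counted from the arm side, a split that does not use the readout, coverage was 8.91% ± 1.52, 17.3% ± 4.51, 71.5% ± 3.95 and 92.6% ± 0.679 (SD, n = 2 replicates, as in all such values). 2LHet was covered at 72.2% ± 0.944, and the part of 2L to the left of the 2 Mb stretch at 2.95% ± 0.240. Block 4, at the tip of the arm, exceeded block 1 by 83.7 ± 0.845 percentage points, a difference many times the spread between the replicates.

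By replicate, the coverage of block 1 was 7.83% for replicate 1 and 9.98% for replicate 2. Block 2 was covered at 14.1% and 20.5%, and block 3 at 68.7% and 74.3%. In block 4 the values were 92.2% and 93.1%. Replicate 2 was therefore the higher list in each of the 4 blocks, and within each replicate coverage went up from block to block towards the centromere. Even block 1, the farthest from the centromere, lay above the rest of the arm, by 3.01-fold ± 0.272.

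Most windows were either empty of clusters or fully covered. In replicate 1, 235 of the 474 windows were covered by at least 50 percent of their bases, against 15.6% of windows over all 13 sequences. In replicate 2 there were 247 such windows, against a background of 17%, and in the combined list 266, against 19.9%. In replicate 1, 168 windows were covered at every base (background 8.88%) and 189 had no covered base (background 76.6%), which left 117 windows in between. In replicate 2, 183 windows were full (background 9.97%) and 162 were empty (background 75%). In the combined list, 206 were full (background 12.6%) and 120 were empty (background 69.8%). The 474 windows make up 1.70% of the bases of the 13 sequences. They held 5.23% of what replicate 1 covered and 5.13% of what replicate 2 covered.

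**Figure D1:**
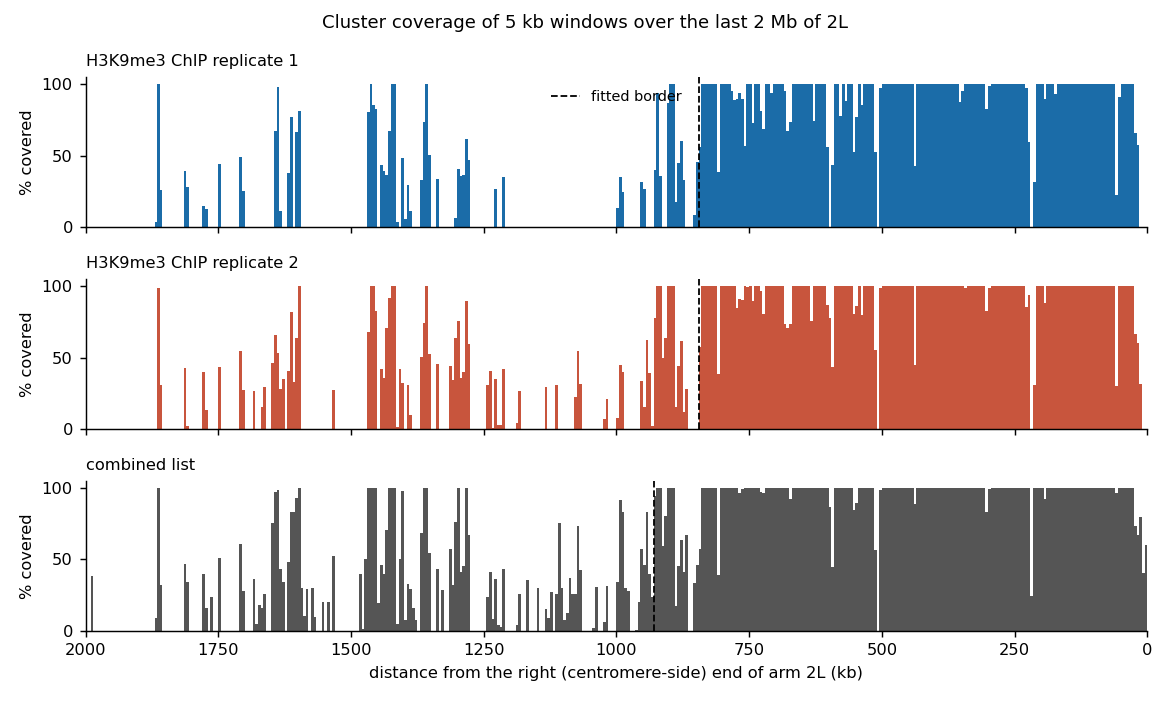
Percent of bases covered by clusters in each 5 kb window of the last 2 Mb of 2L, against the distance in kb from the right end of the arm, for both H3K9me3 replicates and the combined list. Bars are single windows and the dashed line is the fitted border, at 845 kb in both replicates and 930 kb in the combined list; to its right 158 of 169 windows in replicate 1 and 159 in replicate 2 are at least 50 percent covered, to its left the bars stand apart.

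The place of the transition was fixed by the split of the 400 windows of 2L into 2 levels that left the smallest sum of squares. Both replicates gave the same window, which starts at 22166545, 845 kb from the end of the arm. To its left the mean coverage was 12.97% in replicate 1 and 17.95% in replicate 2, and to its right 90.4% and 92.5%. The split was chosen on these same values, so the levels describe the fit and test nothing.

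At this position the change was abrupt in both libraries. Replicate 1 had a cluster from 22168741 to 22202434 (33.7 kb, score 1.93), and replicate 2 one from 22168692 to 22202448 (33.8 kb, score 2.17). The left edges thus lay 49 bp apart, and the combined cluster began 63 bp to the left of that of replicate 1. The window before the border was covered at 45.5% in replicate 1 by a narrow cluster of score 0.660, and at 0% in replicate 2. The border window itself was covered at 56.1% and 57.1%, and the 6 windows after it at 100% in both lists.

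In the combined list the fitted border moved outwards to 22081545, 930 kb from the arm end. Between these positions the combined list had clusters of 15.2 kb (22082341 to 22097531, score 0.792) and 19.9 kb (22102540 to 22122398, score 1.11). Replicate 1 covered them at 55.9% and 76.6%, and replicate 2 at 97.7% and 95.5%. Their scores lay below the lowest of the combined list to the right of the border, 1.66. What moved the border in the combined list was not tested.

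The right-hand 845 kb was covered at 91.5% ± 1.49 by 30 clusters in replicate 1 and 29 in replicate 2, with median widths of 16.8 kb and 16.7 kb. The combined list joined them into 20 clusters with a median width of 35.2 kb. In replicate 1, 158 of 169 windows were at least 50 percent covered (background 15.6%), and in replicate 2 159 were (background 17%). The same 158 windows passed in both. The Jaccard index (shared covered bases of the replicates as a part of all bases that either covers) was 0.962 here and 0.579 to the left of the border.

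The widest combined clusters all lay in the right-hand block. The widest ran from 22576276 to 22710687 (134.4 kb, score 2.52) and was covered at 99.3% in replicate 1, by 3 clusters, and at 99.9% in replicate 2, by 2 clusters. The second ran from 22818644 to 22951970 (133.3 kb, score 2.22), where replicate 2 had a single cluster of 132.9 kb and replicate 1 had 2, of which 1 measured 110.8 kb. The next were 22711586 to 22792280 (80.7 kb, score 2.55), 22338450 to 22415893 (77.4 kb, score 2.42) and 22506608 to 22575724 (69.1 kb, score 2.69). Replicate 1 covered these at 96.4%, 89.8% and 96.7%, and replicate 2 at 97.8%, 96.8% and 96.8%. The 5 widest clusters were thus nearly filled in each library, except the fourth in replicate 1. There replicate 1 had no cluster from 22409352 on, where replicate 2 had narrow clusters of score 3.02 and 2.74. The lists differed in where a wide cluster was broken and in narrow clusters of replicate 2 alone.

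Breaks in the block were few and short. No base was covered in either replicate over 56.9 kb of the 845 kb, in 26 stretches with a median of 1055.5 bp. The longest was the tip of the arm, from 22998354 to 23011544 (13.2 kb). The next were 22499316 to 22506607 (7.29 kb), 22791492 to 22798094 (6.60 kb), 22951663 to 22955151 (3.49 kb) and 22415945 to 22419378 (3.43 kb). The combined list filled 55.5% of the tip and 95.1% of the fourth stretch, but only 0.960% of the second. The stretch at 22499316 was the one break of 5 kb or more in the combined list as well. Whether unsequenced bases or repeats without placed reads lie in such breaks was not analysed here, because no genome of release 5 was used.

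The tip of 2L was the least filled part of block 4. The last 100 kb was covered at 78.1% ± 1.84, against 99.3% ± 0.178 for the 100 kb before it. Replicate 1 had no cluster in the last 17.1 kb, and replicate 2 had 1 (22996768 to 22998353, score 2.02). The combined list had 4 clusters that began there, and 3 of them overlapped no cluster of either replicate. One of these, from 23006860 to 23009851 (2.99 kb), had the highest score of the combined list on the 2L stretch, 4.12.

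To the left of the border, H3K9me3 lay in islands. Replicate 1 had 42 clusters there and replicate 2 had 59, with median widths of 2426.5 bp and 2100 bp. Of the 231 windows, 169 were empty in replicate 1 (73.2%, background 76.6%) and 143 in replicate 2 (61.9%, background 75%). The number empty in both was 139 (60.2%, background 73.8%). In both replicates, 22 windows were covered by at least 50 percent (9.52%, against a background of 15.2% of windows over all sequences). That share lies below the background, in which chromosome 4, the scaffolds and the other arm ends count as well.

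The combined list held 12 clusters of 5 kb or more to the left of the border, 146.1 kb in all, and both replicates covered 11 of them by at least 50 percent. This width limit was chosen after the clusters were seen. The widest and highest-scoring of the 12 ran from 21540884 to 21562524 (21.6 kb, score 2.18) and had 80.7% of its bases in replicate 1 and 81.0% in replicate 2. Its score lay within the range of the right-hand block. The other 11 had lower scores, down to 0.505. Examples are 21578026 to 21596784 (18.8 kb, score 1.05), 21643131 to 21659274 (16.1 kb, score 0.753) and 21146101 to 21153149 (7.05 kb, score 0.911).

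Long empty stretches lay between and beside the islands. Replicate 1 had no cluster from 21798412 to 22015879 (217.5 kb), from 21011545 to 21146347 (134.8 kb) and from 21416168 to 21542498 (126.3 kb), and these 3 stretches held 44.1% of its uncovered bases. Replicate 2 covered them at 5.33%, 0% and 1.37%, and the combined list at 13.8%, 1.61% and 12.7%. All 3 lists were therefore sparse there. The second stretch begins at the first base of the 2 Mb, so its full length was not measured. The longest empty stretch of replicate 2 (135.1 kb) begins at that base as well. Whether these stretches hold unsequenced bases or repeats without placed reads was not analysed here either.

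The first and the third of these stretches differed in the scores of the few clusters they held. In the first, the 7 clusters of replicate 2 had scores from 0.428 to 0.667. The 17 of the combined list scored from 0.245 to 0.543. Their medians, 0.546 and 0.381, lay below those of all clusters to the left of the border, 0.631 and 0.468. In the third, the single cluster of replicate 2 (21479141 to 21480500) had a score of 1.27, and the 7 combined clusters scored from 1.24 to 2.66, with 4 at 2 or more. These 7 clusters were between 1012 bp and 2625 bp wide, and 6 of them had no covered base in either replicate. The stretch also ended directly at the island of highest score. In the second stretch the combined list had 1 cluster, from 21021967 to 21023887 (1.92 kb), whose score of 3.57 was the second highest of that list on the 2L stretch, and no replicate covered it.

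**Figure D2:**
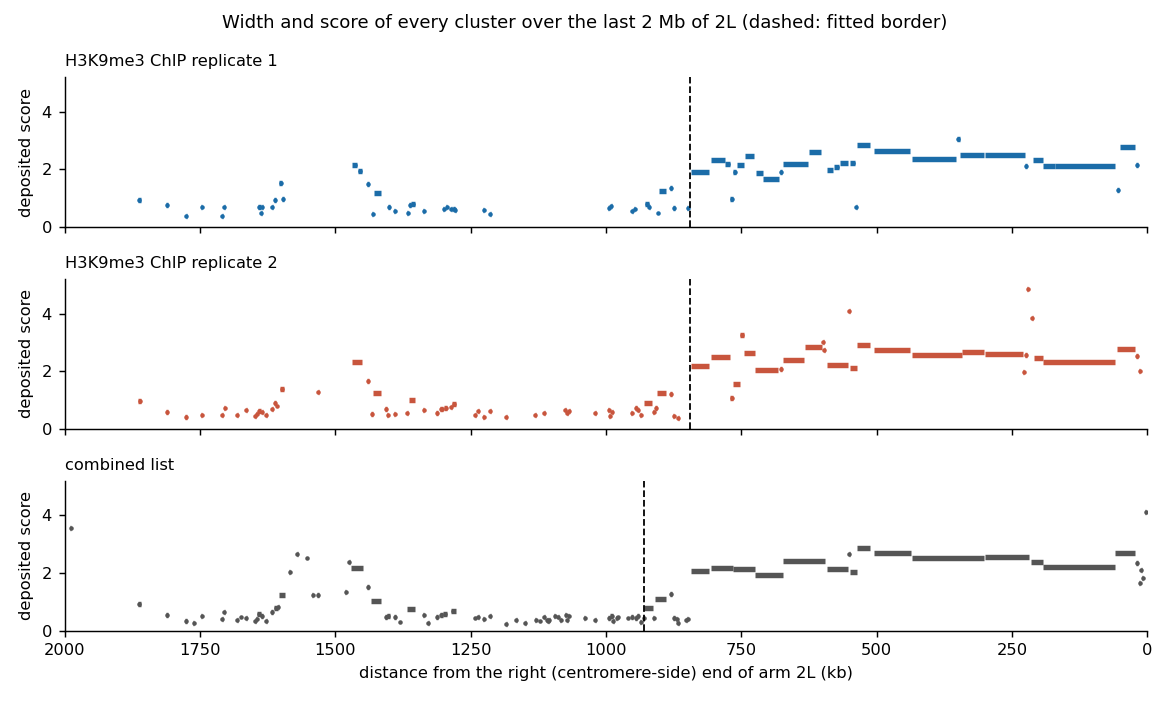
Deposited score of every cluster of the last 2 Mb of 2L against the distance in kb from the right end of the arm, for both replicates and the combined list. Each horizontal bar spans 1 cluster, a dot marks its middle, and the dashed line is the fitted border. Clusters to its left mostly score below 1 and those to its right mostly above 2. The clusters above 3 are at most 7.09 kb wide.

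Scores separated the blocks more than cluster numbers did. Block 1 had 13 clusters in replicate 1 with a median score of 0.708, and block 4 had 12 with a median score of 2.36. In replicate 2, block 1 had 18 clusters with a median of 0.615 and block 4 had 13 with a median of 2.56. None of the clusters of block 1 reached a score of 2 in either replicate, whereas 11 of 12 and 12 of 13 in block 4 did. Relative to each whole list, the median cluster of block 4 stood at the 73.1 percentile in replicate 1 and the 79.8 percentile in replicate 2, and that of block 1 at the 26.0 and 20.2 percentiles.

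Block 3, which holds the border, mixed both kinds. In replicate 1, 11 of its 29 clusters scored below 1 and 10 scored 2 or more. In replicate 2, 12 of 30 scored below 1 and 14 scored 2 or more. Block 2 was like block 1, with medians of 0.628 and 0.631 and a single cluster of 2 or more in each replicate, which lay in the island that begins at 21540884 in the combined list.

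Raising the lowest score that was kept therefore acted unevenly. With clusters of score 1 or more, block 1 kept 11.0% of its covered bases in replicate 1 and 19.1% in replicate 2, and block 2 kept 49.7% and 35.2%. Blocks 3 and 4 kept 91.3% and 100% in replicate 1, and 90.8% and 100% in replicate 2. At a limit of 2, block 4 was still covered at 91.3% and 92.7%, and 2LHet at 62.7% and 66.2%. Block 3 differed between the libraries at that limit, with 39.5% in replicate 1 and 59.8% in replicate 2. At a limit of 3 the coverage of block 4 was 1.14% and 0.560%, and that of 2LHet was 0% in both. In block 4 nearly all coverage thus came from clusters with scores between 2 and 3, whereas block 3 also lost coverage below 2, in replicate 1 from 59.1% at a limit of 1.5.

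**Figure D3:**
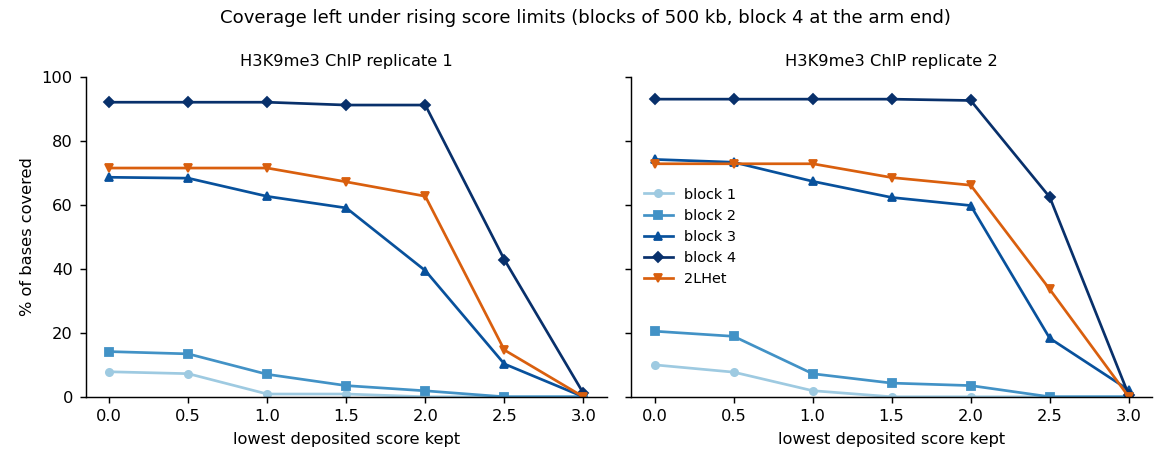
Percent of bases covered in the 4 blocks of 500 kb of the 2L stretch and in 2LHet (vertical axis) when only clusters at or above a given deposited score are kept (horizontal axis), in each replicate. Points are single values at limits from 0 to 3; block 4 stays above 91% up to a limit of 2, and blocks 1 and 2 are under 8% from a limit of 1 on.

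2LHet, a scaffold from the same chromosome arm that the assembly does not join to 2L, was covered at 71.6% by replicate 1, at 72.9% by replicate 2 and at 74.3% by the combined list. It held 18, 14 and 10 clusters in these lists. Their lowest scores were 1.27, 1.38 and 1.32. Like block 4, and unlike the 2L stretch as a whole, 2LHet thus had no cluster below 1. The same 55 of 74 windows were at least 50 percent covered in all 3 lists (backgrounds 15.6%, 17% and 19.9%), and the Jaccard index of the replicates was 0.970.

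**Figure D4:**
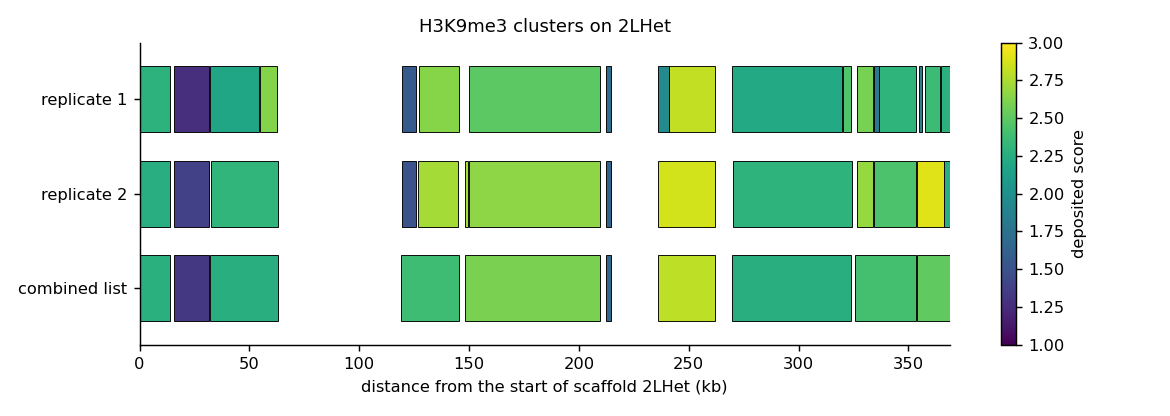
Map of the clusters on scaffold 2LHet, with the distance in kb from its start on the horizontal axis, 1 row per list and the deposited score as colour. The open stretch of 56.3 kb and that of 21.4 kb lie at the same place in the 3 rows.

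Most of the open bases of 2LHet, meaning bases without a cluster, lay in 3 stretches. These ran from 63036 to 119366 (56.3 kb), from 214642 to 236070 (21.4 kb) and from 261885 to 269484 (7.60 kb), and together they made up 86.8% of the bases that neither replicate covered. The combined list covered under 1% of each. Block 4 exceeded 2LHet by 20.4 ± 0.265 percentage points, and the longer 2 of these stretches exceed the longest open stretch of block 4, the 13.2 kb tip of the arm. The cause of the difference was not tested, and unsequenced bases or repeats without placed reads in these stretches were not looked for.

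The widest combined clusters of 2LHet ran from 148331 to 209789 (61.5 kb, score 2.59), from 269511 to 324007 (54.5 kb, score 2.26) and from 32030 to 63169 (31.1 kb, score 2.26). Each was covered at over 96% in both replicates. The highest score, 2.80, belonged to the cluster from 236012 to 261894 (25.9 kb), which lies between the second and the third open stretch. It was followed by the widest cluster and by the one at the end of the scaffold, from 353973 on (14.9 kb, score 2.51). The lowest score in each list fell on the same cluster near the start of the scaffold, from 15498 to 31651 in the combined list (score 1.32). The highest did not, since replicate 1, like the combined list, had it before the third open stretch (241028 to 261884, score 2.81) and replicate 2 had it near the end of the scaffold (354028 to 365989, score 2.90).

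The replicates were compared window by window. Of the 474 windows, 319 had equal coverage, 157 of them empty in both lists (background 73.8%) and 162 full in both (background 8.53%). Another 109 were higher in replicate 2 and 46 were higher in replicate 1. On different sides of 50 percent lay 12 windows (2.53%), and in all 12 replicate 2 was the higher list. Over all 13 sequences, 15.6% of windows reached 50 percent in replicate 1, 17% in replicate 2 and 15.2% in both. Windows that passed in 1 replicate alone were thus few there as well, and more of them were of replicate 2. Neither feature is particular to the 474 windows. All 12 were on 2L, 1 in block 1, 6 in block 2 and 5 in block 3, and none was in block 4 or 2LHet. The largest difference was in the window from 22411545 to 22416544, with a coverage of 0% in replicate 1 and 77.4% in replicate 2.

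Clusters of 1 replicate that overlapped none of the other were narrow. On the 2L stretch there were 4 of 72 in replicate 1 (5.56% by count) and 33 of 88 in replicate 2 (37.5%), and 0 of either were 5 kb wide or more. 2LHet had 0 of 18 and 1 of 14. Put the other way, 62.5% of replicate 2 clusters on the 2L stretch overlapped replicate 1, against 70.8% on the rest of 2L. In the 2 Mb at the centromere side of 2R and 3L the shares were 90.3% and 96.4%. For replicate 1 the same 4 shares were 94.4%, 79.5%, 97.4% and 98.3%. The share over all sequences was not computed. To the left of the border, the 27 unshared clusters of replicate 2 had a median score of 0.568 and a highest score of 1.27. To the right there were 6, with a median of 3.43. These 6 were between 1343 bp and 2058 bp wide and included the highest scores of replicate 2 on the stretch, 4.84 (22790149 to 22791491), 4.10 (22460214 to 22461918) and 3.84 (22798095 to 22799553). The combined list covered all 37 unshared clusters of the 2L stretch at least in part.

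The combined list added coverage in each block. Of its covered bases on the 2L stretch, 8.96% lay in neither replicate, 99.5 kb in all. The added bases came to 22.0 kb in block 1, 37.1 kb in block 2, 23.3 kb in block 3 and 17.1 kb in block 4. As a share of what the combined list covered in each block, this was 28.7%, 26.0%, 5.74% and 3.53%, and on 2LHet the share was 1.34%. Of its 102 clusters on the 2L stretch, 45 overlapped both replicates, 25 overlapped 1 and 32 overlapped neither. The share in neither was thus 31.4%, against 41.8% on the rest of 2L. In the 2 Mb at the centromere side of 2R and 3L it was 8% and 20.5%. For the combined list, too, the share over all sequences was not computed, so whether 31.4% is usual for that list is unknown. The 10 clusters of 2LHet each overlapped both. The combined list was built on the same libraries and holds clusters down to 1001 bp, whereas the narrowest in the replicates were 1301 bp and 1302 bp, so it is no independent measurement.

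The 2L stretch was set beside the 2 Mb at the centromere side of 2R and 3L. Coverage there was 76.0% ± 0.932 and 72.6% ± 0.809, against 47.6% ± 2.66 on 2L, so 2L was lower by 28.4 ± 1.73 and 24.98 ± 1.86 percentage points. Both differences exceeded the spread between the replicates, and no p-value was computed from the 2 differences per arm. The fitted border lay 1630 kb and 1635 kb from the arm end on 2R, and 1550 kb in both replicates on 3L, against 845 kb on 2L. Inside the border the mean coverage was 91.9% and 93.0% on 2R, 91.7% and 93.1% on 3L, and 90.4% and 92.5% on 2L. Beyond it, the windows of the 2 Mb were covered at 2.25% and 3.54% on 2R and at 4.02% and 4.27% on 3L, against 12.97% and 17.95% on 2L. The arms thus differed in the length of the block and in the islands beyond it, while the levels inside it lay within 2 percentage points of each other in each replicate. These stretches end where the assembly ends, and how much heterochromatin the assembly holds for each was not analysed here.

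**Figure D5:**
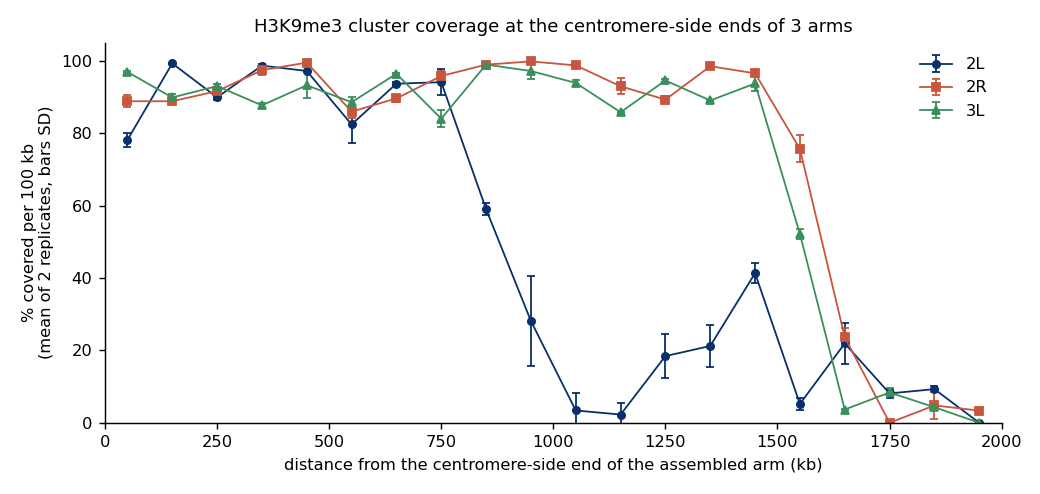
Percent of bases covered per 100 kb (mean of 2 replicates, bars SD) against the distance in kb from the centromere-side end of the assembled arm, for 2L, 2R and 3L. 2L drops from 94.1% to 28.1% between 700 and 1000 kb and has a second maximum of 41.3% at 1400 to 1500 kb, while 2R and 3L stay above 75% up to 1500 kb.

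Among the scaffolds, 2RHet was covered at 75.6% ± 0.956 and 3LHet at 88.2% ± 1.36, against 72.2% ± 0.944 for 2LHet. 2RHet exceeded 2LHet by 3.32 ± 0.0115 points, and by 5.12 points in the combined list. 3LHet exceeded it by 15.9 ± 0.420 points, and by 17.8 points in the combined list. The 2LHet scaffold has 74 windows, far fewer than the others, and its 3 open stretches weigh accordingly.

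The gene table used for names is on release 6, so genes were not placed against clusters, and only their order is given. Of 13 gene names listed for this region, 7 matched a symbol on 2L. Counted from the right end of 2L in that assembly, cta is the sixth of 2657 protein-coding genes, lt the seventh and RpL5 the 14th. Farther out follow tio (36th) and tsh (44th), a pair of related zinc finger genes of which tsh patterns the trunk, then Ac3 (53rd), an adenylyl cyclase gene, and Hr39 (181st), a nuclear receptor gene. Between Ac3 and Hr39 lies the replication-dependent histone gene array, an unbroken run of 111 genes for His1, His2A, His2B, His3 and His4 flanked by nrv3 and Lamp1. No coverage is given for any of these genes.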

How the data were processed

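The authors deposited 3 lists of enriched clusters, 1 per ChIP library and 1 for the replicate set, on FlyBase release 5 per the file headers; a score is deposited for each cluster without a stated scale. Bowtie 0.12.7 appears in the submitters' processing notes, with no role given. Not given in the sources used here are the cluster caller, its threshold, read totals, the handling of repeats and how the replicate set was built. Each of these can change cluster widths and numbers.

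Groups came from the sample titles. Only rows for regions of significant enrichment were used. The combined list has 3 depleted regions, 0 of them on 2L or 2LHet. In each list 1 cluster of 2LHet ran past the scaffold and was clipped. Coverage was counted by base, and clusters were assigned by midpoint. Overlap was counted from 1 bp. The border was a least-squares split of 5 kb windows. The code recovered 20 of 20 simulated 2L ends of 400 windows built with known cluster positions and borders. That check let the found border lie many windows from the built one, and its arm side held only narrow clusters. The distance allowed was close to that between the borders of the replicates and of the combined list. The check therefore does not show how exactly the border of 2L was placed. Named clusters were the 5 widest and 5 highest-scoring of the combined list on the 2L stretch and 3 of each on 2LHet. Named gaps were the 5 longest in neither replicate to the right of the border and the 3 longest of 2LHet. Unshared clusters of 5 kb or more were also to be named. Other clusters and gaps named were chosen after their values were seen. The region, gene list and comparisons were chosen with earlier results of these data known. Python 3.11.15, numpy 2.4.6, pandas 2.3.3, scipy 1.17.1 and matplotlib 3.10.9 were used.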

Additional observations from a re-analysis of the deposited data

How the results depend on the processing

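Of 46 alternatives that did not leave out a replicate, 29 changed a value beyond the SD of the replicates, or at all where the replicates gave 1 shared value, and 17 did not. The combined list gave coverages of 55.6% for the 2L stretch, 74.3% for 2LHet and 15.4%, 28.6%, 81.2% and 97.0% for blocks 1 to 4. It put the border at 930 kb, 56.1% of windows at 50 percent or more, and 2R and 3L above 2L by 23.6 and 20.1 points. Clusters at or above the median score of their list gave 38.5%, 66.8% and, for blocks 1 to 3, 0%, 3.89% and 57.8%. They also gave 44.1% of windows, arm differences of 33.7 and 31.4 points, a longest open stretch on 2L of 601.7 kb (176.3 kb as the mean of both replicates with all clusters) and Jaccard indices of 0.915 on 2L and 0.936 on 2LHet (0.877 and 0.970 with all clusters). A width minimum of 2000 bp gave 7.02% for block 1 and Jaccard indices of 0.898 and 0.970. The border lay at 840 kb with 10 kb windows, at 842 kb with 2 kb windows and at 925 kb with a running mean over 100 kb. A window limit of 90 percent gave 40.6% of windows. To the right of block 2 alone the longest open stretch was 35.5 kb. The score and width limits can only lower coverage, and for the other changes the cause was not tested. Leaving out 1 of 2 replicates moves a mean by under 1 SD by construction. No paired analysis was possible because the input libraries have no list here, which leaves 1 group. Unknown depth limits what an empty window can show.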

Other observations

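The highest score to the right of the border belonged to a narrow cluster in replicate 2 and in the combined list. In replicate 2, the cluster from 22790149 to 22791491 (score 4.84) and that from 22798095 to 22799553 (score 3.84) stand on either side of a break of 6.60 kb that also has no cluster in replicate 1. In the combined list the score of 4.12 at the tip of the arm is on a cluster of 2.99 kb. In replicate 1 the highest score on the 2L stretch was 3.04, on a cluster of 5.68 kb. These values were chosen after the scores were seen, and no test was made.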
